A study of Mus musculus with 4 samples.

Results

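The glucocorticoid receptor gene Nr3c1 and 6 genes of its hormone response, Tsc22d3, Fkbp5, Txnip, Ddit4, Sgk1 and Hsd11b1, were followed in total RNA of mouse splenic T cells. These 7 genes were chosen by symbol from the 55536 mouse genes in the tables, and each symbol matched 1 gene. The glucocorticoid receptor is a nuclear receptor that waits in the cytoplasm in a complex with heat shock proteins. When it binds corticosterone, the main glucocorticoid of mice, it moves to the nucleus and acts on genes through response elements or through other transcription factors. In T cells glucocorticoids are known for dampening activation and for inducing death of thymocytes, and the receptor is also known to take part in the trafficking and daily rhythm of T cells.

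The libraries came from 1 group of 4 biological replicates, called libraries 1 to 4 after their replicate numbers. The cells were primary T cells, described by the antigen CD3, from the spleens of virgin males aged 66 days, B6CASTF1/J hybrids whose mother was C57BL/6 and whose father was CAST/EiJ. All carried both parental genomes, no treatment was named, no hormone level was given, and each library was made from 300 ng of RNA with spike-in RNAs and a stranded kit. The labels give a single donor identifier for the 4 samples and do not say whether they are separate animals, so SDs and p-values measure the spread between these samples, which may be technical. There was no second condition, and the comparisons were between genes within a library and between libraries.

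Gene counts totalled 15765009, 17280908, 16382457 and 14540725 in libraries 1 to 4. T cell markers summed to between 2331 and 2430 TPM (a level per transcript length, scaled to a fixed total per library), and 8 of 8 were at 1 TPM or more in every library. B cell markers summed to 9.74, 12.9, 9.07 and 116 TPM, and erythroid markers to 35.1, 62.5, 15.3 and 633 TPM. Library 4 therefore stood apart in both lists. Neutrophil markers summed to 9.38, 29.6, 10.4 and 9.39 TPM and were highest in library 2. The other lists were low throughout, with at most 29.0 TPM for monocytes and macrophages, 19.6 for natural killer cells, 4.41 for dendritic cells and 1.06 for stroma and endothelium. In bulk RNA, fewer cells of a type and less RNA per cell cannot be told apart.

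Promoter sequence is shown for the starts where the annotated letters bear on the receptor or on the known regulators of its response genes. RefSeq (GRCm38.p6) gave 13 windows of 250 bases before a start for 6 of the 7 genes, all but Nr3c1. None of the Tsc22d3 windows lay at the start of Tsc22d3-201, its most abundant transcript. Both strands were searched. The palindromic response element, AGAACA and TGTTCT with 3 bases between them, was in 1 of these windows, that of Sgk1-202, and in 0.00913% of the 32851 windows of all genes. Its first base lay 189 bases before the start. In the first sequence, capitals mark that element. The second window, of the most abundant Sgk1 start, held none of the 5 motifs searched. In the third, capitals mark a pair of CACGNG motifs with 5 bases between them, the element bound by the glucose sensors MondoA and ChREBP, which lay 85 bases before the Txnip start and was in 0.0457% of all windows. In the fourth, capitals mark CACGTG, the E-box of clock and Myc family factors, 169 bases before the Fkbp5 start.
Sgk1-202 start, chr10:21993640-21993889, plus strand: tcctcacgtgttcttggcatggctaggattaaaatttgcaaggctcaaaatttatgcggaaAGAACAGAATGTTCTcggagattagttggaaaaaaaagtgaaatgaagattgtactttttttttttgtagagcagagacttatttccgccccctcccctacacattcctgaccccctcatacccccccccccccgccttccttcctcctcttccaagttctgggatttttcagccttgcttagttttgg
Sgk1-201 start, chr10:21994416-21994665, plus strand: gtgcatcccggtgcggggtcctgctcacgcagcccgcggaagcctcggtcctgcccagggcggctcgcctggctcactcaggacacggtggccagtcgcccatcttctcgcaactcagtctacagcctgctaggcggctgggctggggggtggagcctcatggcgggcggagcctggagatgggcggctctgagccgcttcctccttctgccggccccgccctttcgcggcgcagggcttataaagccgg
Txnip-202 start, chr3:96557707-96557956, plus strand: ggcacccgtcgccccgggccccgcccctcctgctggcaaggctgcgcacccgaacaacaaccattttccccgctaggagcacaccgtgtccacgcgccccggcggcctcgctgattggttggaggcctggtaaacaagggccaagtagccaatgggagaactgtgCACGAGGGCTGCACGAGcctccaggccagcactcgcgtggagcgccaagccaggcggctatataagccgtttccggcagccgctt
Fkbp5-201 start, chr17:28486150-28486399, minus strand: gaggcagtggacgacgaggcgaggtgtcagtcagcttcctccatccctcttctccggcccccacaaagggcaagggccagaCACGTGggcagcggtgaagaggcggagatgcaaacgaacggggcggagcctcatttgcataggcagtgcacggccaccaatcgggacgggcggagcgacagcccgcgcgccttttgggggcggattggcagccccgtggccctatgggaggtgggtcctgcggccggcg

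Shorter motifs were common among all windows. The single arm AGAACA was in 16.1% of all windows and in 4 of the 13 windows, which belonged to Sgk1 and Tsc22d3. The core ACANNNTGT was in 5.84% of all windows and in 3 of the 13, which belonged to Txnip and Sgk1. Both lie inside the palindrome, so the Sgk1-202 window counts for all of them. CACGTG was in 6.02% of all windows and in 2 of the 13, before Sgk1-202 and Fkbp5-201. The windows of Hsd11b1 and Ddit4 held none of the 5 motifs, and their RefSeq starts lay 269 and 64 bases from the nearest annotated start in the deposited files. A match is a string of letters and not a binding site, and receptor sites outside these windows were not examined.

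All 7 genes were detected in every library, over a wide range of levels. The highest was Txnip, which encodes the inhibitor of thioredoxin and of glucose uptake, and the lowest was Ddit4, which encodes an inhibitor of the mTORC1 growth pathway. The receptor itself stood in the middle of the 7. By mean TPM the order was Txnip, Tsc22d3, Sgk1, Nr3c1, Hsd11b1, Fkbp5 and Ddit4, and the median of the 7 means was 39.1 TPM, against 9.53 TPM over the 13118 genes tested for variation. Between neighbours in this order the ranges over libraries overlapped only for Tsc22d3 and Sgk1, whose lowest and highest values were 107.3 and 107.8 TPM. The smallest fold between means of neighbours without overlap was 1.49, for Nr3c1 over Hsd11b1.

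**Figure D1:**
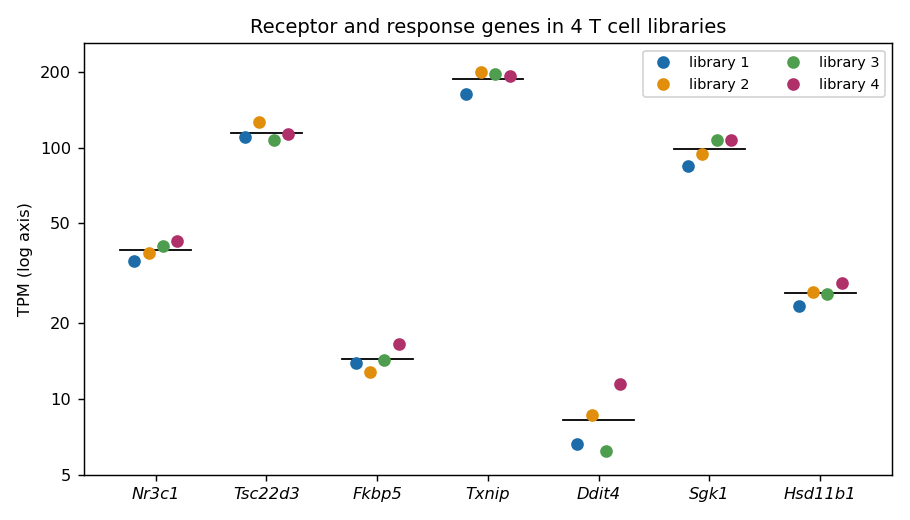
Deposited TPM (log axis) of the 7 genes in each of the 4 libraries, with points for libraries and bars for their means. Txnip lies between 163 and 200.0 TPM, Nr3c1 between 35.3 and 42.5, and Ddit4 between 6.20 and 11.5, with its highest point in library 4.

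Nr3c1 (ENSMUSG00000024431.15, mm10 chr18:39410545-39519421, minus strand), the receptor, had 35.3, 38.0, 40.5 and 42.5 TPM in libraries 1 to 4, a mean of 39.1 ± 3.13 (SD, n = 4). These values rested on 2154, 2424, 2360 and 2202 counts. Its level ranked 1942 among the 13118 tested genes. Scaled to library composition (TMM, edgeR's normalization), its highest library exceeded its lowest by 1.06-fold, and 999 tested genes had a smaller range. By this range, which was not matched for level, it was among the steadier genes between these libraries. Scaled to spike-ins, it ran from -0.12 in library 1 to 0.20 in library 4 around its mean (log2 scale). The protein-coding genes closest to it in level over the 4 libraries were Pak2, a kinase downstream of Rac and Cdc42, at 39.2 ± 2.49 TPM, Man1a2, a Golgi mannosidase, at 39.9 ± 3.33, and Ptcd3, a mitochondrial ribosome protein, at 38.7 ± 2.68 (SD, n = 4). Their root mean square differences from Nr3c1 were 0.0258, 0.0351 and 0.0390 on the log2(TPM + 1) scale, over 4 libraries, and 107 of 10161 genes lay within 0.1.

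Hsd11b1 (ENSMUSG00000016194.14, chr1:193221634-193264075, minus strand) encodes the enzyme that regenerates active glucocorticoid from its inert keto form inside cells. It had 23.4, 26.8, 26.1 and 29.0 TPM, a mean of 26.3 ± 2.29 (SD, n = 4). Library 1 was lowest and library 4 highest, with a TMM-scaled fold of 1.12 between them. Hsd11b2, which encodes the opposing, inactivating enzyme, was at 0 counts in all 4 libraries, which allows up to 0.174 to 0.206 CPM (3 counts). H6pd, which supplies the cofactor for Hsd11b1 in the endoplasmic reticulum, had 11.2 ± 0.896 TPM.

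Fkbp5 (ENSMUSG00000024222.17, chr17:28399094-28517527, minus strand) encodes FKBP51, an immunophilin that lowers the hormone affinity of the receptor complex and is itself induced by the hormone. It had 13.9, 12.8, 14.3 and 16.6 TPM, a mean of 14.4 ± 1.59 (SD, n = 4). Its counterpart Fkbp4, encoding FKBP52, which favours nuclear transport of the receptor, had 30.4 ± 2.37 TPM. Within libraries, Fkbp5 minus Fkbp4 on the log2(TPM + 1) scale was -0.95, -1.20, -1.17 and -0.80, a mean of -1.03 ± 0.188. Fkbp5 was the lower in 4 of 4 libraries, and in an exact two-sided permutation of the signs 2 of the 16 patterns gave a mean as far from 0, the fewest that 4 libraries allow. In the second deposited quantification the mean difference was -0.53.

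Tsc22d3 (ENSMUSG00000031431.13, chrX:140539528-140600659, minus strand) encodes GILZ, a leucine zipper protein that restrains AP-1 and NF-kappaB and is a classical glucocorticoid target in T cells. It had 111, 126, 107 and 113 TPM, a mean of 114 ± 8.15 (SD, n = 4), rank 549. Its highest value, in library 2, exceeded its lowest, in library 3, by 1.20-fold after TMM scaling. Tsc22d4, a relative of the same leucine zipper family, had 74.7 ± 6.03 TPM.

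Txnip (ENSMUSG00000038393.14, chr3:96557957-96561883, plus strand) had 163, 200.0, 197 and 193 TPM, a mean of 188 ± 17.0 (SD, n = 4), and ranked 349. Library 1 was the lowest and the other libraries lay close together. Mlxip, which encodes MondoA, a known activator of Txnip, had 26.6 ± 2.84 TPM, while Mlxipl, encoding its relative ChREBP, averaged 0.0275 TPM. The antisense gene Gm15441 shares 606 exon bases with Txnip and had 6, 9, 20 and 7 counts. The sources used here do not say whether counting used strand, and without it these reads cannot be told from those of Txnip.

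Sgk1 (ENSMUSG00000019970.15, chr10:21882184-21999903, plus strand) encodes a serum- and glucocorticoid-regulated kinase that is activated through mTORC2 and is known in T cells for its part in helper differentiation. It had 84.4, 94.6, 108 and 108 TPM, a mean of 98.6 ± 11.35 (SD, n = 4), rank 646. Library 1 was again lowest, and the TMM-scaled fold was 1.23. Rictor, a subunit of mTORC2, had 44.5 ± 2.54 TPM.

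Ddit4 (ENSMUSG00000020108.4, chr10:59949669-59951834, minus strand), encoding the stress and hormone responsive REDD1, had 6.63, 8.65, 6.20 and 11.5 TPM, a mean of 8.25 ± 2.43 (SD, n = 4). The counts were 180, 253, 171 and 279. Library 4 was highest and library 3 lowest, and the TMM-scaled fold of 1.80 was the widest of the 7 genes. B cell and erythroid markers were also highest in library 4, and their part in the Ddit4 value was not tested. The mean without library 4 was 7.16 TPM. The related Ddit4l had no counts.

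Of the 7 genes 0 passed edgeR's goodness-of-fit test for variation between libraries at an adjusted p of 0.05, against 1.40% of the 13118 genes tested (183 genes). The dispersion was estimated from these same libraries, so the test asks whether a gene spreads more than is usual at its level. A gene that does not pass may still vary between libraries. At an unadjusted p of 0.05, 1 of 7 passed, against 4.60% of all tested genes. That gene was Ddit4, whose unadjusted p in edgeR's test was 0.00616 (adjusted p = 0.276). Its range of 0.84 on the log2 CPM scale was exceeded by 1163 tested genes. With a common dispersion in place of a trended one its adjusted p was 0.0493, and over 8 alternatives it lay between 0.0493 and 1.00. Without library 4 its unadjusted p in edgeR's test was 0.0853. The unadjusted p of the other 6 lay between 0.144 for Sgk1 and 0.924 for Nr3c1. The median range of the 7 genes was 0.26, and that of all tested genes 0.27, on the log2 CPM scale. The sets were not matched for level, with median means of 39.1 and 9.53 TPM.

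**Figure D2:**
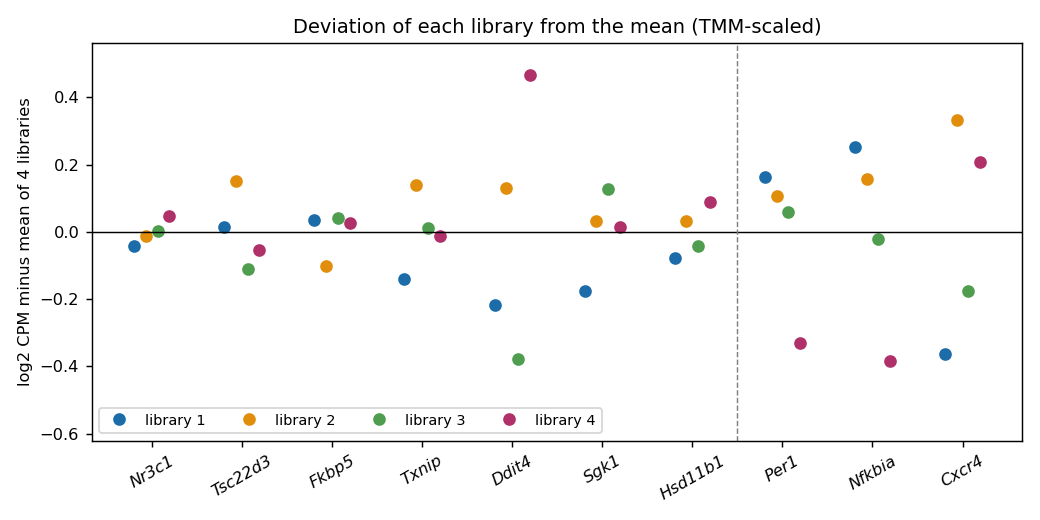
Deviation of each library from the gene's mean of 4 libraries (log2 CPM after TMM scaling) for the 7 genes, left of the dashed line, and for the response genes Per1, Nfkbia and Cxcr4, right of it. Ddit4 runs between -0.38 and 0.47 and Nr3c1 between -0.04 and 0.05, while Per1 and Nfkbia are lowest in library 4.

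Set against the receptor within each library, Txnip, Tsc22d3 and Sgk1 were higher and Hsd11b1, Fkbp5 and Ddit4 lower, in 4 of 4 libraries each. On the log2(TPM + 1) scale the mean differences from Nr3c1 were 2.24 ± 0.095 for Txnip, 1.53 ± 0.162 for Tsc22d3 and 1.31 ± 0.065 for Sgk1 (SD, n = 4). For the lower genes they were -0.55 ± 0.052 for Hsd11b1, -1.38 ± 0.102 for Fkbp5 and -2.15 ± 0.313 for Ddit4 (SD, n = 4). In the exact permutation of signs each was again matched by 2 of 16 patterns, a share that adjustment over the 7 differences tested, Fkbp5 minus Fkbp4 included, left as it was. No difference of this kind could pass 0.05 with 4 libraries. Hsd11b1 minus Nr3c1 was -0.57, -0.49, -0.61 and -0.54 in libraries 1 to 4, and the second quantification gave a wider spread, with a mean of -0.45 ± 0.184. Tsc22d3 was farther above it in libraries 1 and 2, at 1.62 and 1.70, and nearer in libraries 3 and 4, at 1.38 and 1.39.

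The transcripts of the 7 genes were quantified in both deposited transcript tables, and the split between alternative starts differed between the tables for several genes. In the second table the TPM of expressed genes was higher by a median of 0.39 on the log2 scale (0.33 to 0.45 over libraries), and shares within a gene do not depend on that shift. By gene totals, the order of the 7 genes was the same in both. Relative to the shift, Fkbp5 was 0.46 higher and Ddit4 and Txnip were 0.42 and 0.32 lower in the second table than in the first (log2 scale).

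Tsc22d3-201, which encodes 137 residues, the length of classical GILZ, held 76.0% ± 2.53 of the gene's TPM in the first table and 50.9% ± 4.92 in the second (SD, n = 4). Tsc22d3-204, with 113 residues and another start, had 0, 1.12, 0 and 0 TPM in the first table, with upper interval bounds of 1.46, 3.29, 2.32 and 2.32, but 35.3, 52.1, 41.0 and 53.0 TPM in the second. The tables did not overlap for this transcript. It shares 809 of its 952 bases with Tsc22d3-201 and has 143 of its own. Both tables gave a like share to the transcript with a retained intron, Tsc22d3-205, at 18.4% ± 1.79 and 17.8% ± 1.71. The long form Tsc22d3-203, with 201 residues, stayed at or below 0.53 TPM in the first table. In libraries 1 to 4 of the second it had 0.128, 0.504, 0 and 1.09 TPM.

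Sgk1 has 7 annotated starts, where transcripts within 500 bases count as 1 start. The start of Sgk1-201, whose protein of 431 residues is the standard form, held 85.2% ± 1.94 of Sgk1 TPM in the first table and 57.5% ± 13.5 in the second. That start also takes in Sgk1-206, with 266 residues, and Sgk1-207 and Sgk1-209, which have a retained intron. Sgk1-201 alone held 44.1% ± 2.98 in the first table and 29.6% ± 15.1 in the second. The upstream start of Sgk1-203 and Sgk1-212 held 0.892% ± 1.13 in the first table and 15.3, 30.2, 21.2 and 44.9% in libraries 1 to 4 of the second. Library 4 stood apart there, with 36.6 TPM of Sgk1-203 against at most 4.14 in the other libraries, and 11.8 TPM of Sgk1-201 against at least 38.2. Sgk1-203 shares 2291 of its 2476 bases with Sgk1-201. The start with the palindromic element, that of Sgk1-202, was minor in both tables, with 2.30% ± 1.02 and 3.18% ± 2.43 of Sgk1 TPM. Sgk1-202 was assigned 3.10, 1.18, 2.49 and 2.11 TPM in the first table, with lower interval bounds of 1.46, 0.311, 0.972 and 0.726. It shares 2284 of its 2576 bases with Sgk1-201 and has 292 of its own, so its level rests on the split between transcripts. Transcripts with a retained intron held 35.1% ± 2.00 of Sgk1 TPM in the first table and 22.4% ± 2.59 in the second.

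**Figure D3:**
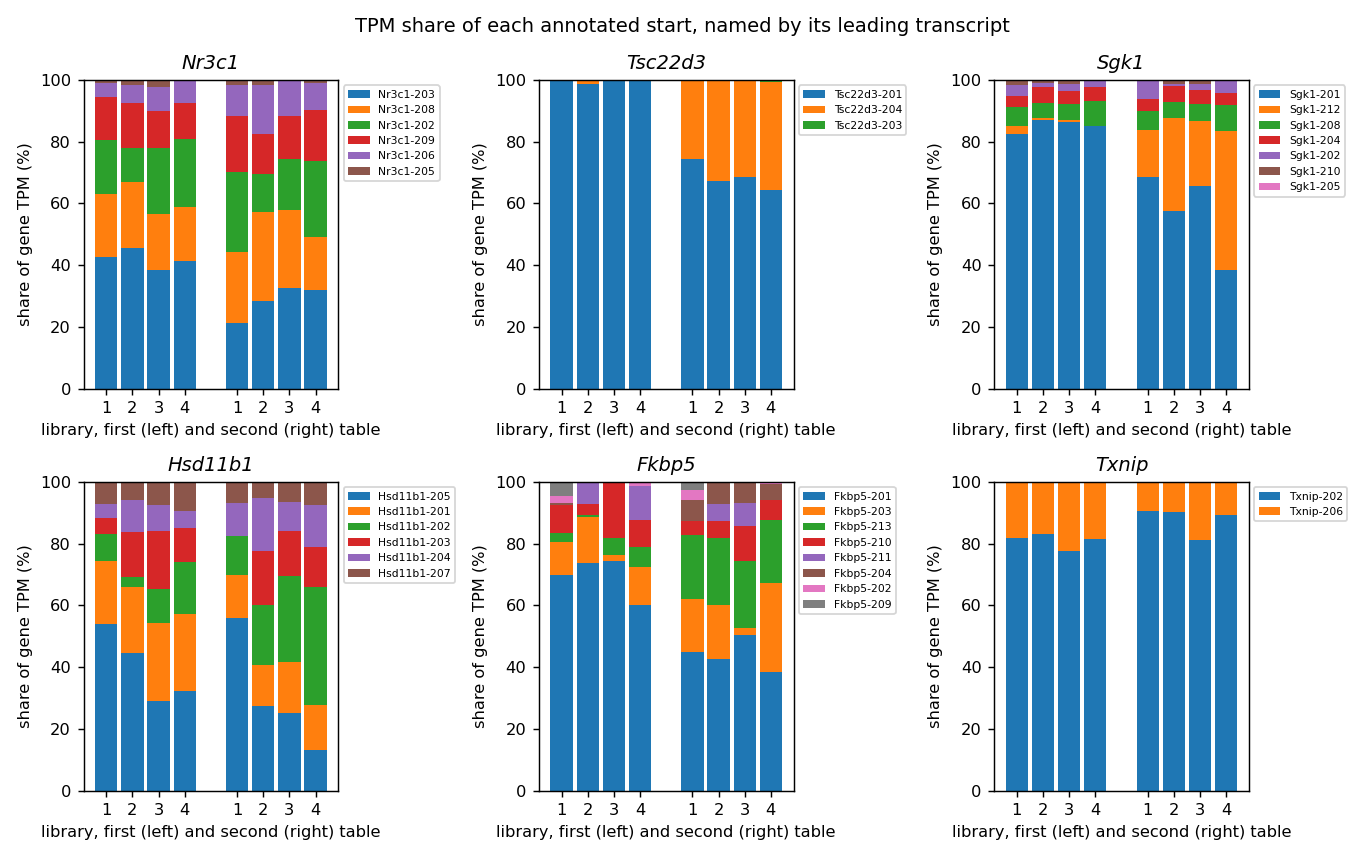
Share (%) of a gene's TPM at each annotated start, stacked per library, for 6 genes, with libraries 1 to 4 of the first table on the left and of the second on the right in each panel. The Tsc22d3-204 start holds 0.222% on average in the first table and 31.1% in the second, and the Sgk1-201 start is smallest in library 4 of the second. Ddit4 has 1 start and is not drawn.

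Nr3c1 has 9 annotated transcripts at 6 starts, all annotated as protein-coding. Only Nr3c1-201 to Nr3c1-204 encode 792 or 793 residues, and the other models encode 24 to 488. Nr3c1-203, which encodes a receptor of 792 residues, held 42.0% ± 2.98 of Nr3c1 TPM in the first table and 28.5% ± 5.20 in the second (SD, n = 4). Nr3c1-208, Nr3c1-209 and Nr3c1-206 encode 488, 35 and 49 residues. Their mean shares were 19.2, 13.1 and 6.4% in the first table and 15.7, 15.4 and 11.5% in the second. Nr3c1-202 encodes 793 residues. Its coding sequence differs from that of Nr3c1-203 by an insertion of 3 bases after coding base 1399, inside the codon that follows residue 466. An insertion of a single arginine codon in the DNA-binding domain is known in human as the receptor's gamma form. Nr3c1-202 had 4.35, 4.04, 6.73 and 9.31 TPM in the first table and 6.66, 5.38, 8.20 and 14.7 TPM in the second, highest in library 4 in both. All but 3 of its 2382 bases are shared with Nr3c1-203, so few reads can tell the forms apart.

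The TPM of Hsd11b1 and Fkbp5 was also split between several annotated starts. Starts were taken from the annotation and not measured, and their shares rest on the split of reads between transcripts. The far upstream Hsd11b1-205 held 54.0, 44.6, 29.0 and 32.2% of Hsd11b1 TPM in libraries 1 to 4 of the first table and 55.9, 27.5, 25.2 and 13.3% in the second. Library 1 was highest in both tables. Hsd11b1-201, whose start lies downstream and which encodes the same 292 residues, held 23.1% ± 2.40 and 14.5% ± 1.38. Fkbp5-201, encoding 456 residues, had 9.66, 9.44, 10.6 and 9.96 TPM in the first table and 9.77, 10.2, 11.6 and 11.7 TPM in the second. Its share of Fkbp5 TPM was 69.4% ± 6.57 in the first table and 41.8% ± 3.41 in the second. The non-coding processed transcripts of Fkbp5 held 19.1% ± 9.51 of its TPM in the first and 40.9% ± 7.66 in the second. The annotated start of the coding Txnip transcripts held 80.9% ± 2.32 and 87.9% ± 4.47 of Txnip TPM. Ddit4 has a single annotated transcript of 229 residues.

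The machinery around the receptor was present throughout. Of the receptor's chaperones and co-chaperones, 15 of 15 were at 1 TPM or more in every library, with a median mean of 33.9 TPM. Of all 55536 genes, 11653 reached 1 TPM in every library, which is the background for all list counts of this kind. Hspa8 and Hsp90ab1, the chaperones that load and hold the receptor, had 499 ± 70.6 and 349 ± 35.7 TPM, and their co-chaperone Dnaja1 127 ± 12.8. Of the coregulators, 14 of 14 reached 1 TPM, led by the corepressor Ncor1 at 163 ± 4.99 TPM and the coactivators Ncoa3 and Ncoa2 at 53.8 ± 4.75 and 53.1 ± 3.22 (SD, n = 4). None of the 15 and 14 genes passed edgeR's variation test, against 1.40% of all tested genes, and 1 and 0 had an unadjusted p under 0.05, against 4.60%, so these counts were near the background.

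Among related steroid receptors, Esr1, an estrogen receptor, averaged 0.940 TPM, far below Nr3c1. Nr3c2, the mineralocorticoid receptor, which also binds corticosterone, had 16, 11, 13 and 15 counts, and Pgr, the progesterone receptor, had none. In edgeR's test 0 of the 4 tested members of the receptor family passed, against 1.40% of all tested genes (1 at an unadjusted p of 0.05, against 4.60%). In the list of hormone metabolism and export, 4 of 10 genes reached 1 TPM in every library, namely Hsd11b1, H6pd and the exporter genes Abcb1a at 5.13 ± 0.558 and Abcb1b at 4.62 ± 1.12 TPM, close copies between which the split of reads is uncertain. The steroid synthesis genes Cyp11b1, Cyp21a1 and Hsd3b1 had no counts, and Cyp11a1, the first enzyme of steroid synthesis, lay between 0.03 and 0.21 TPM.

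Beyond the 7 genes, 20 of 30 further glucocorticoid response genes reached 1 TPM in every library, with a median mean of 18.1 TPM. The highest were Btg1, an antiproliferative gene, at 451 ± 14.8 TPM, Klf13, a transcription factor, at 159 ± 11.9, and Dusp1, a phosphatase of MAP kinases, at 129 ± 4.38 (SD, n = 4). The liver enzyme gene Tat and the metabolic kinase gene Pdk4 had no counts. Of the 23 genes tested 3 passed edgeR's variation test, against 1.40% of all tested genes, and 20 did not. Per1, a clock gene with a receptor element, had 121.8, 124.8, 121.8 and 100.5 TPM (adjusted p = 0.0439 in edgeR's test). Nfkbia, the inhibitor of NF-kappaB, had 129, 132, 110 and 92.0 TPM (adjusted p = 0.00140 in edgeR's test). Both were lowest in library 4, where Ddit4 was highest. B cell and erythroid markers were also highest in that library, and their part in the Per1 and Nfkbia values was not tested. Cxcr4, a chemokine receptor, had 16.2, 27.4, 20.6 and 25.7 TPM (adjusted p = 0.0440 in edgeR's test) and was lowest in library 1.

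These calls changed with single libraries and with the fit. In edgeR's test, the adjusted p of Per1 was 0.162 without library 1, 0.0558 without library 3 and 1.00 without library 4. That of Nfkbia was 0.0571 without library 1 and 1.00 without library 4. That of Cxcr4 was 0.802 without library 1, 0.779 without library 2 and 0.0576 without library 3. With scaling to spike-ins none of them passed, at adjusted p of 0.999, 0.999 and 0.0746 in edgeR's test, and with a common dispersion none did, at 0.609, 0.191 and 0.0902. With no filter on low counts Per1 and Cxcr4 did not pass, at adjusted p of 0.0538 and 0.0565 in edgeR's test.

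Of the 10 tested genes of the early response to cell handling and stimulation, 3 passed edgeR's variation test, against 1.40% of all tested genes, and 7 did not. Fos, a subunit of AP-1, which the receptor represses, had 57.6, 83.1, 117 and 141 TPM (adjusted p = 2.31e-19 in edgeR's test), and its relative Fosb 24.5, 34.4, 42.9 and 65.0 TPM (adjusted p = 5.42e-19). Hspa1b, a heat shock gene, had 0.58, 2.80, 3.51 and 2.53 TPM (adjusted p = 3.87e-05 in edgeR's test, and 1.00 without library 1), and its near-identical copy Hspa1a makes its reads uncertain. Junb and Jun, further AP-1 subunits, averaged 383 ± 49.7 and 143 ± 9.64 TPM (SD, n = 4). Fos was lowest in library 1, as were Nr3c1, Txnip, Sgk1 and Hsd11b1 by TPM. Low TPM in library 1 was not particular to these genes. The chaperone list summed to 1251, 1456, 1596 and 1416 TPM in libraries 1 to 4. The coregulator list summed to 593.4, 610.5, 620.7 and 651.5 TPM, while the partners of the 7 proteins were lowest in library 2. After TMM scaling Nr3c1 deviated by -0.04 from its mean in library 1 (log2 scale). Whether the Fos values are linked to those of the other genes was not tested.

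Of the partners of the 7 proteins, 20 of 24 reached 1 TPM in every library, with a median mean of 16.3 TPM, and 0 of 20 passed edgeR's variation test, against 1.40% of all tested genes. At an unadjusted p of 0.05 it was 1 of 20, near the background of 4.60%. Akt1, a kinase related to Sgk1, had 35.1 ± 1.83 TPM. Txn1, the thioredoxin that Txnip binds, averaged 20.5 TPM.

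**Figure D4:**
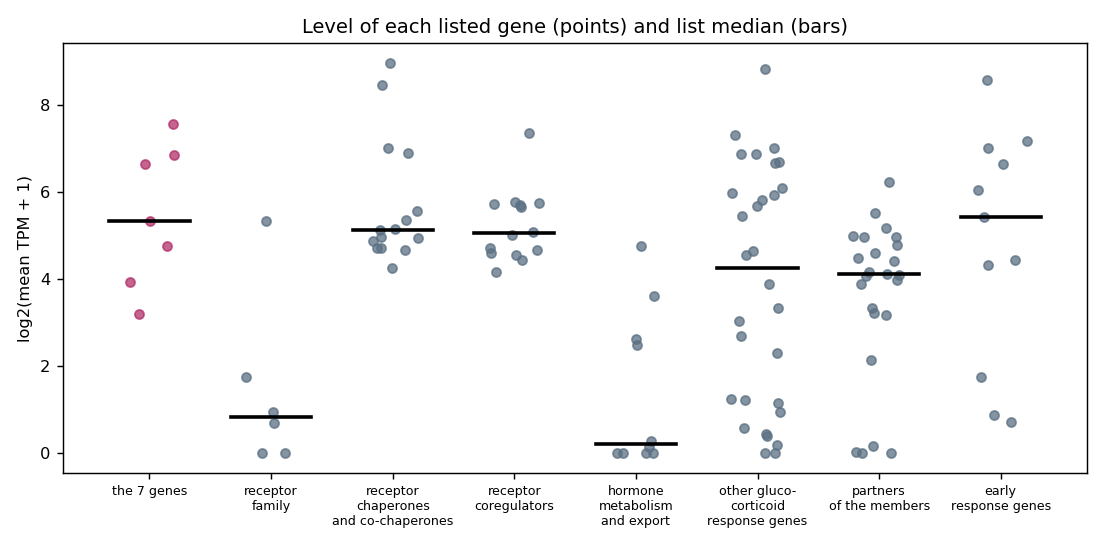
Level of each gene, as log2(mean TPM + 1) over 4 libraries, by list, with list medians as bars. The receptor family and hormone metabolism lists, which contain Nr3c1 and Hsd11b1 as their highest members, have the lowest medians of the lists drawn, at 0.778 and 0.164 TPM, and the chaperone and coregulator lists have medians of 33.9 and 32.3 TPM.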

How the data were processed

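Total RNA-seq of 4 libraries was used. The assembly was mm10 and the gene models GENCODE M21, per a text file deposited beside each library. The aligner and quantifier names are not given in the sources used. Deposited gene tables hold expected counts, not normalized, and TPM, which the authors scaled to effective length and to a fixed total. The deposited transcript tables give TPM and the percent of each isoform in its gene, and posterior interval bounds whose level is not stated; a second deposited transcript table holds TPM from another quantification, summed here per gene. Reads were assigned to a C57BL/6 reference, and reads with CAST/EiJ variants could be lost. Spike-ins took 0.299% to 0.346% of counts and, like 26248 numeric identifiers that name no gene, stayed out of library sizes and tests.

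Expected counts were rounded. Each gene passing edgeR's filter on low counts was fitted with an intercept and a trended dispersion after TMM scaling, and tested for goodness of fit over the 4 libraries, with Benjamini-Hochberg adjustment over 13118 genes (edgeR 4.0.16, R 4.3.3). Differences between genes within a library used log2(TPM + 1) and exact two-sided sign-flip permutation tests. Python 3.11.15, pandas 2.3.3, scipy 1.17.1 and DESeq2 1.42.0 (size factors, as an alternative) were also used. The test was tried on simulated data. Floors of 3 counts are 0.174 to 0.206 CPM; such floors cover counting error alone, since PCR copies were not marked by molecular identifiers. Motifs were matched exactly in RefSeq windows.

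Named genes were the 7 genes, the 3 highest of each list by mean TPM, each listed gene past the variation test, and the 3 coding genes closest to Nr3c1 in level. Other listed genes named for their role (Fkbp4, H6pd, Hsd11b2, Nr3c2, Pgr, Cyp11a1, Cyp11b1, Cyp21a1, Hsd3b1, Tat, Pdk4, Abcb1b, Mlxip, Mlxipl, Txn1 and Ddit4l) were chosen after their values were seen. Not every listed gene covered by this rule is reported here, and list counts and sums include all listed genes. The 7 genes and all lists were chosen with earlier results of these data known.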

Additional observations from a re-analysis of the deposited data

Results flagged for a closer look

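Of 57 values checked over the 4 libraries, 11 had 1 library set apart from the rest by Dixon's criterion, and 0 of them belonged to the 7 genes. Chance sets apart about 1 in 20 groups picked without regard to their spread, but the values checked included genes named because they varied between libraries, so that rate cannot be set against the 11. The values of 10 follow. Per1 was low in library 4, at 100.5 TPM against 121.8 to 124.8 in the other libraries. B cell markers were high in library 4, with Cd79a at 12.6 TPM against 1.19 to 1.50, Cd79b at 11.8 against 1.36 to 2.38, Pax5 at 9.19 against 0.22 to 0.85 and Igkc at 67.9 against 5.42 to 7.20. Erythroid markers were high in the same library, with Hba-a1 at 246.5 TPM against 6.42 to 26.6, Hba-a2 at 155.8 against 3.69 to 15.2 and Hbb-bs at 194.9 against 4.22 to 18.2. The alpha globin genes are near-identical copies, and the split of reads between them is uncertain. Neutrophil markers were high in library 2, with S100a8 at 11.4 TPM against 2.21 to 3.58 and S100a9 at 13.3 against 3.25 to 4.30.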

How the results depend on the processing

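The count of genes past the variation test was 183, and it was 279 with no filter on low counts and 353 with a common dispersion, of which 147 were among the 183. Leaving out 1 library gave 116 to 146 genes, lowest without library 4 and 118 without library 1. DESeq2 size factors gave 180 genes and spike-in scaling 123. Of the 7 genes 0 passed under these alternatives, except with a common dispersion, where 1 did, Ddit4. Without library 4 the unadjusted p in edgeR's test was 0.0346 for Sgk1 and 0.0497 for Txnip, and neither passed after adjustment. The 7 differences between genes kept their direction in 49 of 49 alternatives, and with 3 libraries the smallest exact permutation p was 0.25. Each difference had the same sign in 4 of 4 libraries. Leaving out a library, another pseudocount or protein-coding TPM therefore could not reverse it. Only the second quantification could have done so, and there all 7 kept their direction. In the second quantification Fkbp5 minus Nr3c1 was -1.002, Txnip minus Nr3c1 1.88 and Ddit4 minus Nr3c1 -2.60. There the levels of 5 of the 7 genes moved by more than 1 SD, to 52.9 TPM for Nr3c1, 146 for Tsc22d3, 26.0 for Fkbp5, 137 for Sgk1 and 39.0 for Hsd11b1. These moves include the general shift of 0.39 between the tables (log2 scale). Relative to it, Nr3c1, Tsc22d3 and Sgk1 moved by 0.045, -0.043 and 0.071. Hsd11b1 and Fkbp5 moved by 0.16 and 0.46, and Txnip and Ddit4 by -0.32 and -0.42. Which table splits isoforms better was not tested. No paired analysis was possible because the series has 1 group. Precision is limited by 4 libraries and, for Ddit4, by at most 279 counts in a library.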
